A study of Mus musculus with 8 samples.

Results

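The tumour suppressor p53 (gene Trp53) and 9 genes it is known to switch on were followed in mouse aorta: Mdm2, Cdkn1a, Ccng1, Pmaip1, Bbc3, Gdf15, Phlda3, Trp53inp1 and Sesn1. The genes were taken by symbol from the deposited table, and all 10 were found among its 22063 genes and had enough counts to be tested. The table holds 8 aorta libraries, 4 from mice given saline (vehicle 1 to 4) and 4 from mice given colchicine by gavage at 200 µg per kg per day (colchicine 1 to 4). All the mice were male C57BL/6J, 3 weeks old at the start and on chow, and for 3 weeks all of them, controls included, drank water with BAPN (beta-aminopropionitrile, an inhibitor of lysyl oxidase that weakens the aortic wall) at 1 g per kg per day. Colchicine is an anti-inflammatory drug that keeps tubulin from assembling into microtubules. The labels do not say that each library came from a separate mouse or whether aortas were pooled, so p-values measure the spread between these libraries, which may be technical in part. No aorta without BAPN was analysed here.

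As background, p53 is a transcription factor that is held low by Mdm2, a ubiquitin ligase that marks it for destruction and is itself a p53 target, which closes a feedback loop. Because p53 is controlled largely at the protein level, its mRNA is no measure of its activity. Stresses such as DNA damage stabilise p53, and its targets then halt the cell cycle (Cdkn1a, which encodes the CDK inhibitor p21), open the mitochondrial route of apoptosis (Pmaip1 and Bbc3, the BH3-only proteins Noxa and Puma), restrain AKT (Phlda3) or adjust metabolism and autophagy (Sesn1, Trp53inp1). Several of these genes also answer to other factors, and Gdf15 and Sesn2 are known targets of the stress factor ATF4.

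The p53 protein binds DNA as a tetramer at an element made of 2 half-sites of 10 bases each. RefSeq promoter windows on GRCm38.p6, which run from 250 bases before to 50 bases after an annotated start, were found for 8 of the 10 genes, all but Pmaip1 and Trp53inp1. They were searched for the p53 consensus element with its half-sites side by side. The consensus reads the same on both strands. A match with at most 1 mismatch over the 20 bases was found in 29 of 27025 genes with a window (0.107%), and Cdkn1a and Ccng1 were among them. Their windows are printed 5′ to 3′ on the strand of the gene because they are the 2 targets with a match, of which 1 passed the test and the other did not, with the matching 20 bases in capitals. The Cdkn1a window lies at the upstream of its 2 annotated starts (chr17:29090729-29091028, plus strand), and the match begins at position -51 from that start. The Ccng1 window (chr11:40755237-40755536, minus strand) has its match at position -195.
Cdkn1a: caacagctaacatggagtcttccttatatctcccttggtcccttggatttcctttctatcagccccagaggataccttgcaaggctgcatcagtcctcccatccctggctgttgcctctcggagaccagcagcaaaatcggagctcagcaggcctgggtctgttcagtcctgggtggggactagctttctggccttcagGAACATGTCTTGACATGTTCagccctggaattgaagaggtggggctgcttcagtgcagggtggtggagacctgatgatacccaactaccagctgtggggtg
Ccng1: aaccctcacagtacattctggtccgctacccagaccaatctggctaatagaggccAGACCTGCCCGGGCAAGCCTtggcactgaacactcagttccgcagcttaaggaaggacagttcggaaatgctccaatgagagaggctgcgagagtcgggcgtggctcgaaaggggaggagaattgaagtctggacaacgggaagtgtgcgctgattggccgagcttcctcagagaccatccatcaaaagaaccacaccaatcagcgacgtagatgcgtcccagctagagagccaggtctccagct
The other windows of the 8 genes had at best 3 mismatches, which 7.2% of all genes with a window also reach. A match describes the letters and does not show that p53 binds there, and elements outside these windows were not looked for. Of the 29 genes, 7 were tested in the aortas by symbol, and 3 of these fell (17.0% of all tested genes fell). They were Cdkn1a, the folate enzyme gene Mthfd1, at -0.78 on the log2 scale (adjusted p = 0.0288), and Rps27l, a p53-induced paralog of a ribosomal protein gene whose reads may be shared with that near-identical gene, at -0.92 (adjusted p = 0.0293). None of the 7 rose, and the other 4 did not pass, among them Ccng1.

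Library totals ranged from 15427898 to 18460006 estimated counts. Vehicle libraries were less alike than colchicine libraries (Spearman correlation across tested genes of 0.905 to 0.956 against 0.982 to 0.991). Vehicle 1 and vehicle 4 stood apart, with haemoglobin genes at 14.9% and 6.21% of counts against 0.0419% to 0.318% in the other 6 libraries, so results are also given without these 2 libraries. All 8 smooth muscle markers, among them Acta2, Myh11 and Myocd, were present in all 8 libraries. In whole tissue, fewer cells of a type and less RNA per cell cannot be told apart.

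The mRNA of p53 and of 4 of its 9 targets fell in colchicine aortas, and 2 targets rose. By the edgeR quasi-likelihood test (Benjamini-Hochberg adjustment over all 13431 tested genes), Trp53, Cdkn1a, Pmaip1, Gdf15 and Phlda3 fell, Trp53inp1 and Sesn1 rose, and Mdm2, Ccng1 and Bbc3 did not pass. Over all tested genes 34.4% passed, 17.4% raised and 17.0% lowered, so the 7 calls among 10 genes stand beside a high background. The median change of the 10 genes was -0.71 on the log2 scale, against -0.03 over all tested genes. Without vehicle 1 and 4, where 20.2% of tested genes rose and 20.3% fell, the same 7 genes passed in the same directions, and Bbc3 (lower) and Ccng1 (higher) passed as well. In the 7 called genes the groups did not overlap in CPM (counts per 1000000, with library totals scaled by TMM factors), which was so for 39.1% of all tested genes.

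**Figure D1:**
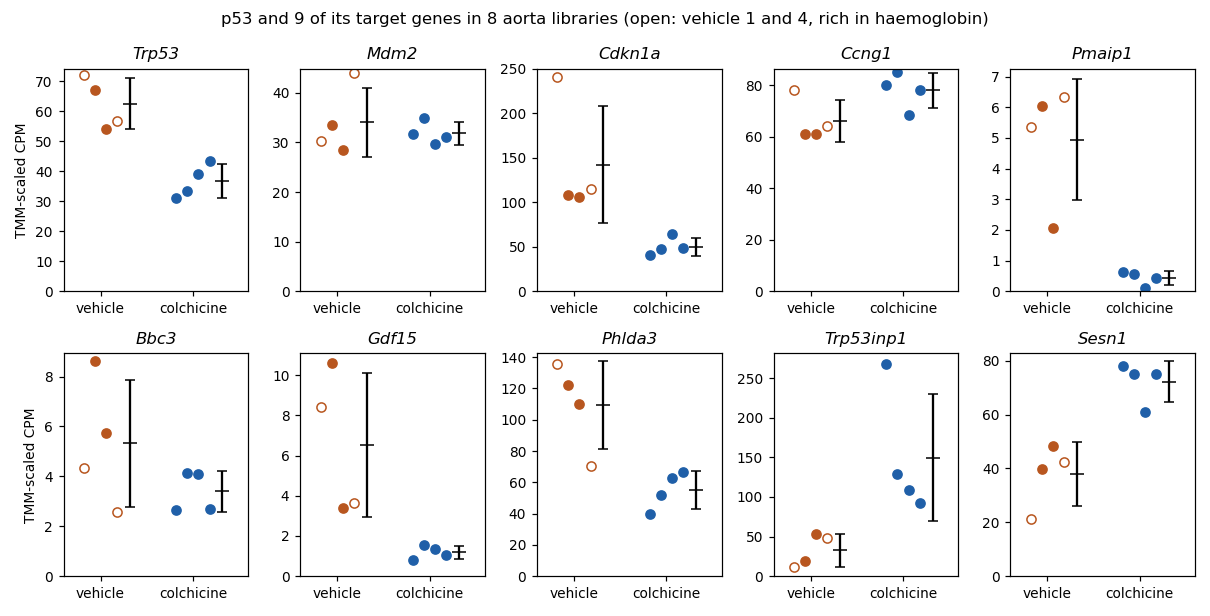
TMM-scaled CPM of each gene in each library (y axis from 0), with the mean and SD of the 4 libraries beside each group and vehicle 1 and 4 as open circles. Trp53, Cdkn1a, Pmaip1, Gdf15 and Phlda3 separate downwards with colchicine and Trp53inp1 and Sesn1 upwards, while the groups overlap in Mdm2, Ccng1 and Bbc3.

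Trp53 itself (ENSMUSG00000059552, GRCm38 chromosome 11, 69580359 to 69591873, plus strand) was at 72.1, 67.0, 54.2 and 56.7 CPM in vehicle 1 to 4 and at 31.0, 33.5, 39.2 and 43.5 CPM in colchicine 1 to 4. Every colchicine library was below every vehicle library, and the spread within each group was small. The change was -0.76 ± 0.15 (log2, standard error, n = 4 per group, adjusted p = 0.00846), a 1.70-fold lower level. It passed in each of the 8 fits that left out 1 library (-0.88 to -0.71). On TPM (the deposited transcript abundances, which take account of length and use no TMM factors) the groups overlapped, with vehicle 1 at 40.03 TPM and vehicle 4 at 55.4 TPM against 40.5 to 57.4 TPM with colchicine, and the change of -0.34 did not pass (adjusted p = 0.31). On TPM the median change of all genes stood at 0.35 on the log2 scale, against -0.03 in counts, with 2347 genes raised and 863 lowered against 2342 and 2277 in counts, so that 6.56% of genes were called lowered. After each library's median was subtracted, the Trp53 change in TPM was -0.69 (adjusted p = 0.00966), with 34.1% of all genes called in either direction (18.5% raised, 15.6% lowered). Over all 20 alternatives the adjusted p ranged from 8.4e-05 to 0.314.

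Mdm2 (chromosome 10, 117688875 to 117710758), the ligase that degrades p53 and a standard readout of p53 activity, did not pass. Its levels were 30.3, 33.6, 28.4 and 44.0 CPM in vehicle and 31.6, 34.97, 29.6 and 31.1 CPM in colchicine libraries, so that all but vehicle 4 lay within a narrow common range. The change was -0.10 ± 0.16 (adjusted p = 0.637), with a 95% interval of -0.45 to 0.25, and its sign turned without vehicle 4 (0.04). Relative to Trp53, Mdm2 stood at 0.253, 0.290, 0.301 and 0.446 in vehicle and 0.588, 0.599, 0.440 and 0.412 in colchicine libraries, as ratios of TPM, and these ratios overlapped.

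Cdkn1a (ENSMUSG00000023067, chromosome 17, 29090976 to 29100727), which encodes p21, the inhibitor through which p53 stops the cell cycle, fell as well. It was at 240.2, 108, 106 and 115 CPM in vehicle 1 to 4 and 40.2, 47.1, 63.8 and 48.1 CPM in colchicine 1 to 4. Vehicle 1 was far above the other 3 vehicle libraries, and all 4 were above the highest colchicine library. On TPM vehicle 1 (128 TPM) lay within the range of the other vehicle libraries (107 to 132 TPM), and all 4 were again above the highest colchicine library (75.2 TPM). As a ratio of TPM to Trp53, vehicle 1 was at 3.2, against 1.57 to 1.93 in the other vehicle libraries. The change was -1.51 ± 0.30 (adjusted p = 0.00796), a 2.85-fold lower level, and -1.09 without vehicle 1 and 4 (adjusted p = 0.00743). It passed in all 20 alternatives (adjusted p of 1.42e-05 to 0.0332). An unnamed gene on the opposite strand shares 7.68% of the Cdkn1a exon bases, and the strand setting of the counting is unknown here.

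Ccng1 (chromosome 11, 40748552 to 40755311) encodes cyclin G1, a p53 target that recruits a phosphatase to Mdm2. It was at 78.4, 61.0, 61.1 and 64.2 CPM in vehicle and 80.4, 85.2, 68.7 and 78.1 CPM in colchicine libraries. Vehicle 1 fell among the colchicine libraries, and the other 3 vehicle libraries were below all of them. The change of 0.24 ± 0.13 did not pass (adjusted p = 0.18, 95% interval -0.06 to 0.54), but without vehicle 1 and 4 it was 0.36 (adjusted p = 0.0463, range over all alternatives 0.0463 to 0.423). Per length, the ratio of Cdkn1a to Ccng1 was 5.81, 3.40, 3.37 and 3.36 in vehicle 1 to 4 and 0.969, 1.11, 1.80 and 1.22 in colchicine 1 to 4. Every colchicine ratio was below every vehicle ratio, and such a ratio does not depend on the scaling of libraries.

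**Figure D2:**
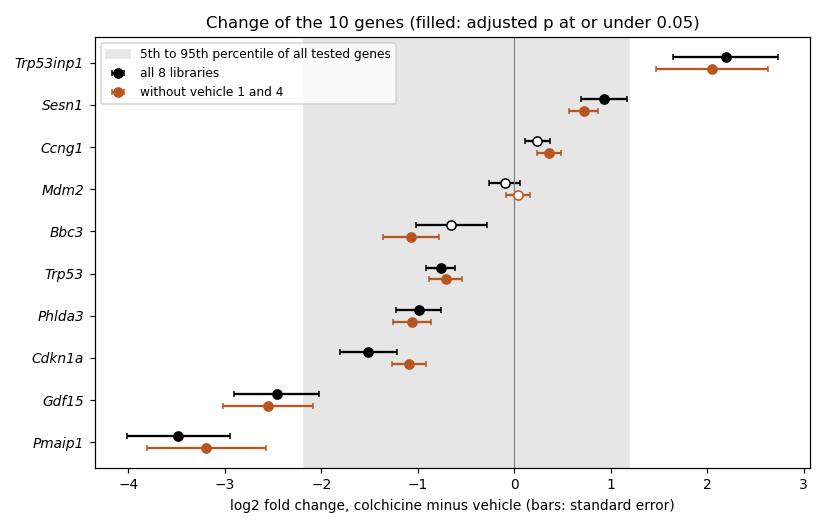
Log2 fold change (colchicine minus vehicle) of the 10 genes with standard errors, from all 8 libraries (black) and without vehicle 1 and 4 (orange), filled where the adjusted p was at or under 0.05. The grey band spans the 5th to the 95th percentile of all tested genes, -2.17 to 1.19, and Pmaip1 and Gdf15 lie below it and Trp53inp1 above it.

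The 2 BH3-only genes differed in their results. Pmaip1 (ENSMUSG00000024521, chromosome 18, 66458533 to 66465565), whose product Noxa neutralises the survival protein MCL1, was at 5.36, 6.04, 2.05 and 6.34 CPM in vehicle and 0.623, 0.574, 0.111 and 0.439 CPM in colchicine libraries. The lowest vehicle library was above the highest colchicine library, and these low levels rest on 39 to 110 counts in vehicle and on 2 to 11 counts in colchicine libraries. Colchicine 3, with 2 counts, was under the floor of 3 counts. The change was -3.48 ± 0.53 (adjusted p = 0.00479), 11.2-fold lower, the largest of the 10, and only 1.95% of all tested genes had as low a value. Without vehicle 1 and 4 it was -3.19 (adjusted p = 0.0105).

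Bbc3 (chromosome 7, 16308393 to 16318205), whose product Puma binds all the main survival proteins of the BCL2 family, was at 4.33, 8.62, 5.74 and 2.58 CPM in vehicle and 2.66, 4.13, 4.11 and 2.69 CPM in colchicine libraries. Vehicle 4 was the lowest of all 8, and the groups overlapped. The change of -0.65 ± 0.37 did not pass (adjusted p = 0.193, 95% interval -1.48 to 0.19). Without vehicle 1 and 4 it was -1.07 (adjusted p = 0.0256, range over all alternatives 0.0256 to 0.895), and on TPM it was 0.09. As ratios of TPM, Bbc3 to Pmaip1 stood at 0.613 to 4.06 in vehicle and 7.57 to 58.2 in colchicine libraries.

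Gdf15 (ENSMUSG00000038508, chromosome 8, 70629393 to 70632456) encodes a secreted stress cytokine that signals through a receptor in the hindbrain. It was at 8.45, 10.6, 3.37 and 3.63 CPM in vehicle and 0.793, 1.55, 1.33 and 1.04 CPM in colchicine libraries. Vehicle 1 and 2 were high, vehicle 3 and 4 were intermediate, and all colchicine libraries were lower still. The change was -2.46 ± 0.44 (adjusted p = 0.00663), 5.49-fold lower, and it passed in all 20 alternatives.

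Phlda3 (chromosome 1, 135766119 to 135769136), a small protein that keeps AKT from the membrane, was the most abundant of the 10 per length (132 ± 49.9 TPM in vehicle, 86.6 ± 18.95 TPM in colchicine libraries, SD, n = 4). It was at 135, 122, 109.8 and 70.2 CPM in vehicle and 39.9, 51.6, 62.7 and 66.6 CPM in colchicine libraries, with vehicle 4 only just above colchicine 4. The change was -0.99 ± 0.23 (adjusted p = 0.0145), 1.98-fold lower. On TPM the groups overlapped and the change of -0.55 did not pass (adjusted p = 0.18), while with library medians subtracted it was -0.90 (adjusted p = 0.0206, range over all alternatives 0.000635 to 0.183).

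Trp53inp1 (ENSMUSG00000028211, chromosome 4, 11156431 to 11174379) encodes a p53-induced nuclear protein that promotes p53 phosphorylation and autophagy, and it was the target that rose most. It was at 11.02, 19.3, 53.3 and 47.7 CPM in vehicle and 268.4, 129.5, 108 and 92.7 CPM in colchicine libraries. Vehicle 1 and 2 were lowest, and colchicine 1 was far above the other colchicine libraries. The change was 2.19 ± 0.54 (adjusted p = 0.0162), 4.56-fold higher, and 99.6% of all tested genes had a lower or equal value. It missed the threshold without colchicine 1 (1.71, adjusted p = 0.054), and it passed without vehicle 1 and 4 (2.05, adjusted p = 0.029).

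Sesn1 (chromosome 10, 41809935 to 41908424), a sestrin that restrains the growth kinase complex mTORC1, was at 21.1, 39.7, 48.5 and 42.4 CPM in vehicle and 77.9, 75.0, 61.1 and 75.0 CPM in colchicine libraries. Vehicle 1 was the lowest, and all colchicine libraries were above all vehicle libraries. The change was 0.93 ± 0.24 (adjusted p = 0.0178), 1.90-fold higher. It missed the threshold without colchicine 1, 2 or 4 (0.87, 0.87 and 0.88, adjusted p of 0.0546 to 0.062), and it passed without vehicle 1 and 4 (0.72, adjusted p = 0.0119). The related Sesn2, which ATF4 also controls, moved the other way, from 25.1 ± 4.04 to 8.24 ± 1.41 CPM (-1.60 ± 0.18, adjusted p = 0.00388), and Sesn3 was at 27.5 to 71.9 CPM in vehicle and 48.1 to 52.3 CPM in colchicine libraries (0.17 ± 0.29, adjusted p = 0.653).

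Per length, the order of the 10 genes differed between the groups. In vehicle libraries Phlda3 (132 TPM) and Cdkn1a (123 ± 11.3 TPM) led, followed by Trp53 (60.7 ± 16.8), Ccng1 (32.3 ± 7.56), Sesn1 (25.9 ± 13.4), Mdm2 (19.6 ± 6.51), Trp53inp1 (11.8 ± 8.89), Gdf15 (7.92 ± 5.38), Bbc3 (5.99 ± 4.42) and Pmaip1 (3.14 ± 1.41). Apart from Cdkn1a and Trp53, and Trp53 and Ccng1, neighbours in this order overlapped within their SD. In colchicine libraries Phlda3 (86.6 TPM) again came first, and Trp53inp1 (62.8 ± 35.4 TPM), Cdkn1a (62.5 ± 9.89), Sesn1 (57.5 ± 7.70), Ccng1 (50.2 ± 5.62) and Trp53 (46.7 ± 7.72) followed with overlapping SDs. Mdm2 (23.3 ± 1.80) was below them beyond the SDs, and Bbc3 (5.36 ± 0.845), Gdf15 (1.88 ± 0.504) and Pmaip1 (0.403 ± 0.241) came last, each below the one before it beyond the SDs. On TPM the groups of Cdkn1a, Pmaip1 and Gdf15 did not overlap on the lower side, which was so for 7.80% of genes, and those of Trp53inp1, Sesn1 and Ccng1 did not on the higher side (28.6% of genes). The ratio of Trp53inp1 to Trp53 was 0.0502, 0.0947, 0.324 and 0.277 in vehicle and 2.85, 1.27, 0.909 and 0.701 in colchicine libraries, and that of Sesn1 to Cdkn1a was 0.0601, 0.248, 0.299 and 0.243 against 1.21, 0.981, 0.616 and 0.985.

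**Figure D3:**
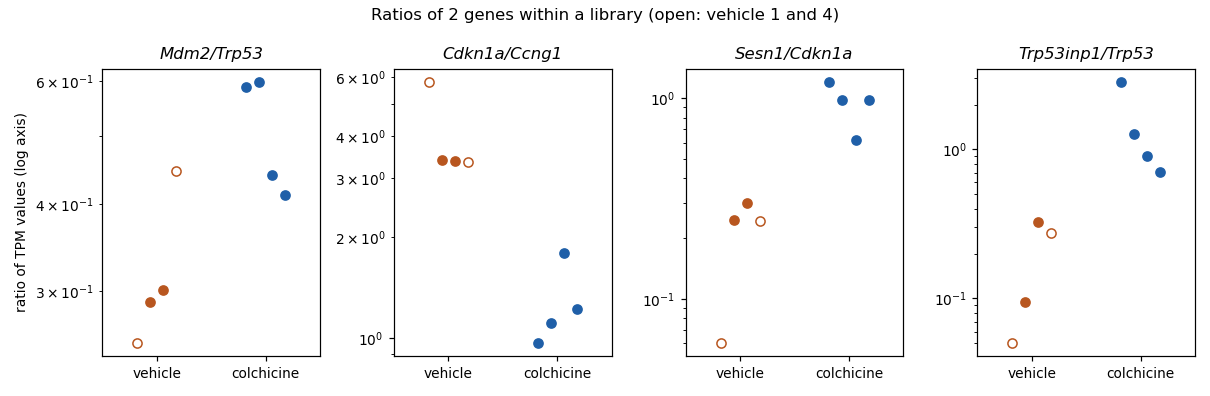
Ratios of TPM values of 2 genes within each library on a log axis, with vehicle 1 and 4 as open circles. The groups separate for Cdkn1a to Ccng1 (vehicle 3.36 to 5.81, colchicine 0.969 to 1.80), Sesn1 to Cdkn1a and Trp53inp1 to Trp53, and overlap for Mdm2 to Trp53.

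Markers of several cell types differed between the groups as well. Over 8 macrophage and monocyte markers, all present in all 8 libraries, the summed level was 3130, 3519, 1292 and 1893 CPM in vehicle 1 to 4 and 372 to 747 CPM in colchicine libraries, and 7 of the 8 fell. In CPM, Gdf15, Trp53 and Phlda3 were higher in vehicle 1 and 2 than in vehicle 3 and 4, as were these markers. On TPM only Gdf15 of these 3 kept this order. Trp53 was lowest in vehicle 1 (40.03 TPM, against 68.8 and 55.4 TPM in vehicle 3 and 4). Phlda3 was lower in vehicle 1 (93.1 TPM) than in vehicle 3 (173 TPM). The marker sums are given in CPM only. Pmaip1 and Cdkn1a were ordered otherwise, in CPM and on TPM. In vehicle 4 against vehicle 2, Pmaip1 was at 6.34 against 6.04 CPM and Cdkn1a at 115 against 108 CPM. Pmaip1 was also lower in vehicle 1 (5.36 CPM) than in vehicle 4. On TPM both were lower in vehicle 4 than in vehicle 2 (Pmaip1 4.04 against 4.63 TPM, Cdkn1a 107 against 123 TPM). But on TPM Pmaip1 was lower in vehicle 1 (2.01 TPM) than in vehicle 4, and Cdkn1a was highest in vehicle 3 (132 TPM). The 8 smooth muscle markers summed to 8738, 6305, 16186 and 21580 CPM in vehicle and 23223 to 31728 CPM in colchicine libraries (3 rose, 0 fell). In CPM, Trp53inp1 and Sesn1 were lower in vehicle 1 and 2 than in vehicle 3 and 4, again as were these markers. On TPM Trp53inp1 kept this order, while Sesn1 was higher in vehicle 2 (30.6 TPM) than in vehicle 4 (25.9 TPM). The 8 neutrophil markers summed to 2834, 19.9, 13.1 and 725 CPM in vehicle and 2.17 to 4.25 CPM in colchicine libraries, with Ly6g at 0 in 4, Camp at 0 in 3 and Cxcr2 at 0 in 1 of the 8 libraries. The 8 platelet markers summed to 53.96 to 815 CPM in vehicle and 27.4 to 33.3 CPM in colchicine libraries (6 of 7 tested fell, Gp6 at 0 in 1 library). The 8 endothelial markers summed to 1092 to 1671 against 1763 to 2593 CPM (3 rose, 2 fell), and the 8 fibroblast markers to 1383 to 4012 against 3275 to 3821 CPM (2 rose), with none at 0. The 8 adipocyte markers summed to 504 to 1401 against 162 to 411 CPM (1 of 7 tested fell, Lep at 0 in 1 library). The 8 lymphocyte markers summed to 6.69 to 36.9 against 2.36 to 13.4 CPM (1 of 5 tested fell, with Cd3e and Cd3d at 0 in 1 library and Ms4a1 in 2). Sums did not overlap between the groups for macrophage, smooth muscle, neutrophil, platelet, endothelial and adipocyte markers. The part of cell makeup in the changes of p53 and its targets was not tested. Without vehicle 1 and 4, which held most of the neutrophil marker counts, the 7 calls were as given above. Vehicle 2 and 3, which remain in that fit, still lay above all colchicine libraries in neutrophil markers (19.9 and 13.1 CPM) and macrophage markers (3519 and 1292 CPM).

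**Figure D4:**
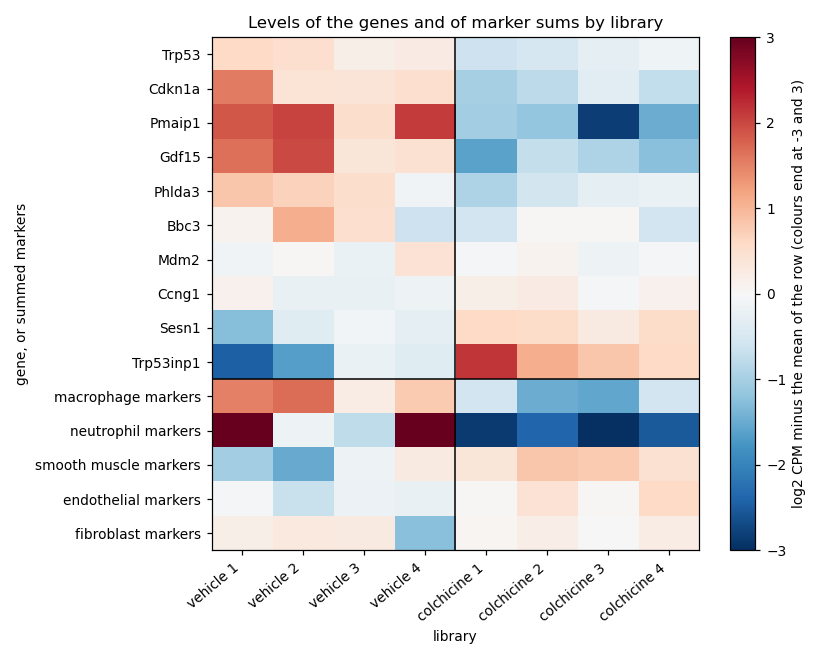
Log2 CPM of each gene, with 0.1 CPM added, and of summed cell type markers, minus the mean of the row, in the 8 libraries (red above, blue below; colours end at -3 and 3). Trp53, Cdkn1a, Pmaip1, Gdf15 and Phlda3 are higher on the vehicle side, as are the macrophage and neutrophil markers. Sesn1 and Trp53inp1 are higher on the colchicine side, as are the smooth muscle and endothelial markers. These likenesses describe the contrast between the groups, and the order within the vehicle group is given in the text.

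Across the 8 libraries Trp53inp1 ran against Trp53 (Pearson r of log2 CPM -0.97, and -0.91 after group means were removed), and Sesn1 ran against Cdkn1a (-0.98 and -0.96). Trp53 and Phlda3 went together (0.94 and 0.80), as did Trp53inp1 and Sesn1 (0.93 and 0.79), while Mdm2 went with neither Trp53 (0.09 and -0.27) nor Cdkn1a (0.04 and -0.31). These 8 points share their group contrast and library makeup, and the values are descriptive. All r values rest on CPM, and how far they depend on library scaling was not tested. In Trp53, vehicle 1 was the highest vehicle library in CPM but the lowest on TPM (40.03 TPM). It was also the lowest in Trp53inp1 on TPM (2.01 TPM). Vehicle 3 was the highest vehicle library on TPM in both Sesn1 (39.6 TPM) and Cdkn1a (132 TPM). Among colchicine libraries on TPM, Trp53inp1 still fell as Trp53 rose, and colchicine 3 was lowest in Sesn1 and highest in Cdkn1a. Of 11877 other genes searched, those most like Trp53 were Runx2, P2ry6 and B4galt3, given with r before and after group means were removed. Runx2, a bone and cartilage transcription factor, was at 0.991 and 0.95 (change -2.33, adjusted p = 0.00596). P2ry6, a nucleotide receptor, was at 0.991 and 0.96 (change -1.27), and the galactosyltransferase gene B4galt3 at 0.988 and 0.94. Those most like Cdkn1a were Mrpl27 (0.997 and 0.99), Jmjd6 (0.995 and 0.98) and Snf8 (0.994 and 0.98). For Mdm2 the best were lower, Trim12c (0.853 and 0.87), Phf8 (0.841 and 0.83) and Marchf5 (0.826 and 0.83), and none of these 3 passed the test between the groups.

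Other known p53 targets, 57 genes in 4 lists by role, of which 55 were in the table and 53 were tested, fell in 15 cases and rose in 6 (28.3% and 11.3%, against 17.0% and 17.4% of all tested genes), with a median of -0.43. Without vehicle 1 and 4, 24 fell, where 20.3% of all tested genes fell. The number that fell was 8 without colchicine 2, and the number that rose was 3 without vehicle 1 or colchicine 4, 2 without colchicine 2 and 1 without colchicine 1. Of all tested genes, 1309 fell without colchicine 2, against 2277 with all 8 libraries. Those that rose numbered 1512 without vehicle 1, 1237 without colchicine 4, 898 without colchicine 2 and 928 without colchicine 1, against 2342. Differences between the lists by role were not tested. Of the p53 signalling pathway as annotated in the deposited table, without the 10 genes, 60 genes were tested, of which 17 are also in these lists. Among the other 43, 12 fell and 6 rose (27.9% and 14%, median -0.35). Some of these 43 are counted again in the further lists below, among them Atm, Bid, Bcl2 and Cdk1.

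Targets that arrest the cell cycle fell in 4 of 12 tested cases and none rose (33.3% lowered, against 17.0% of all tested genes, median -1.24). The 4 were Plk3, a stress-induced polo kinase, from 47.1 ± 48.1 to 4.94 ± 0.751 CPM (-3.25 ± 0.67, adjusted p = 0.00926), Gadd45a, a DNA damage sensor protein (-2.06 ± 0.46, adjusted p = 0.0115), Sfn, the 14-3-3 sigma protein (-2.05 ± 0.39, adjusted p = 0.00772), and the antiproliferative gene Btg1 (-1.87 ± 0.52, adjusted p = 0.0241), which did not pass when any 1 colchicine library was left out (up to 0.0686). The Btg1 change was -0.51 without vehicle 1 and 4 (adjusted p = 0.0168), and that of Gadd45a was -1.35 (adjusted p = 0.0191). Plk3 was at 117, 21.03, 11.002 and 39.1 CPM in vehicle 1 to 4, so its mean rests mostly on vehicle 1, and without vehicle 1 and 4 its change was -1.69 (adjusted p = 0.00753). Without vehicle 4, alone or with vehicle 1, 7 of this list fell (19.4% and 20.3% of all tested genes fell in these fits, and without vehicle 4 alone 37.3% passed in either direction).

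Targets that act in cell death and autophagy fell in 6 of 16 tested cases and rose in 1 (37.5% and 6.25%, against 17.0% and 17.4% of all tested genes, median -0.47). Bax, the pore former of the mitochondrial outer membrane, fell from 114, 61.9, 44.9 and 61.8 CPM to 26.2, 31.5, 36.2 and 29.8 CPM (-1.19 ± 0.27, adjusted p = 0.0121), and its change was -0.78 without vehicle 1 and 4 (adjusted p = 0.0145). Trp53i11 fell by 1.43 ± 0.32 (adjusted p = 0.0124). Pidd1, a scaffold of caspase-2, was at -1.33 ± 0.44 (adjusted p = 0.0421) but did not pass without vehicle 2, vehicle 3, or colchicine 1, 2 or 4 (up to 0.11). The one that rose was Perp, a desmosome protein, at 1.35 ± 0.40 (adjusted p = 0.0316), which did not pass without vehicle 1, vehicle 3, or colchicine 1, 2 or 4 (up to 0.0939). The number that fell was 3 without colchicine 1 or 4 and 2 without colchicine 2. Of all tested genes, 1449 fell without colchicine 1, 1685 without colchicine 4 and 1309 without colchicine 2, against 2277 with all 8 libraries.

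DNA repair and nucleotide targets rose in 4 of 10 cases and none fell (40% raised, against 17.4% of all tested genes, median 0.25). Rrm2b, the p53-induced ribonucleotide reductase subunit, rose by 1.19 ± 0.29 from 9.21 ± 3.34 to 21.1 ± 4.82 CPM (adjusted p = 0.0162), the nuclease gene Ercc5 by 0.84 ± 0.20 (adjusted p = 0.0145) and the lesion-bypass polymerase gene Polk by 0.64 ± 0.20 (adjusted p = 0.0342). Rrm2b did not pass without colchicine 1 or 2 (up to 0.06), Ercc5 without colchicine 1 (0.0572), or Polk when any 1 library other than vehicle 3 or 4 was left out (up to 0.114) or without vehicle 1 and 4 (0.0555). The number that rose was 0 without colchicine 1, 1 without colchicine 2 and 2 without vehicle 1 or colchicine 4. Of all tested genes, 928 rose without colchicine 1, 898 without colchicine 2, 1512 without vehicle 1 and 1237 without colchicine 4, against 2342 with all 8 libraries. Metabolic targets fell in 5 of 15 cases and rose in 1 (33.3% and 6.67%, against the same 17.0% and 17.4%, median -0.46), and were led by Sesn2 above, Sco2, a cytochrome oxidase assembly factor (-1.43 ± 0.31, adjusted p = 0.0108), and the drug efflux pump Abcb1a (-1.28 ± 0.34, adjusted p = 0.0212), which did not pass without colchicine 2 or 3 (up to 0.0573). The number that fell was 3 without colchicine 2 or 3 and 8 without vehicle 1 and 4, and the number that rose was 2 without vehicle 4, colchicine 3, or vehicle 1 and 4. Of all tested genes, 1309 fell without colchicine 2, 1541 without colchicine 3 and 2787 without vehicle 1 and 4. Those that rose numbered 2420 without vehicle 4, 1726 without colchicine 3 and 2783 without vehicle 1 and 4.

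**Figure D5:**
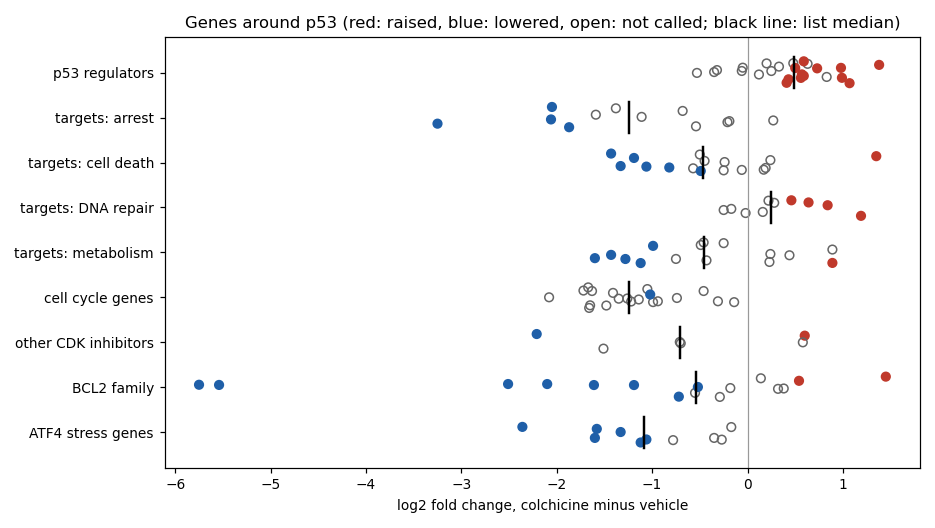
Log2 fold change (colchicine minus vehicle) of each tested gene in 9 lists around p53, red where raised, blue where lowered and open where not called, with the list median as a black line. Arrest targets, ATF4 stress genes and cell cycle genes hold calls on the lowered side only (medians -1.24, -1.09 and -1.24), with 1 call among the cell cycle genes. The p53 regulators and DNA repair targets hold calls on the raised side only (medians 0.49 and 0.25).

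Genes that act on the p53 protein, and its paralogs, rose in 12 of 24 tested cases and none fell (50% raised, against 17.4% of all tested genes, median 0.49). They included the paralog Trp63 (1.38 ± 0.38, adjusted p = 0.0242), at a low 0.439 to 0.790 CPM in vehicle and 1.00 to 2.27 CPM in colchicine libraries, the methyltransferase gene Setd7 (1.07 ± 0.24, adjusted p = 0.0119) and Atm, the kinase that signals DNA breaks to p53 (0.99 ± 0.25, adjusted p = 0.0176). Atm did not pass without colchicine 1 or 2 (up to 0.0682), and Trp63 did not without vehicle 1 or 2 or colchicine 1, 2 or 4 (up to 0.0778) or without vehicle 1 and 4 (0.0901). The number that rose was 6 without vehicle 1, 4 without colchicine 1, 1 without colchicine 2 and 5 without colchicine 4. Of all tested genes, 1512, 928, 898 and 1237 rose in these fits, in the same order, against 2342 with all 8 libraries. Mdm4, the partner of Mdm2 that masks p53, was at 0.48 ± 0.20 and did not pass (adjusted p = 0.0881).

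Of 20 cell cycle genes that p53 and p21 are known to repress, 1 passed (5% lowered, against 17.0% of all tested genes), with values from -2.08 to -0.14 and a median of -1.24. It was the replication helicase gene Mcm2 (-1.02 ± 0.26, adjusted p = 0.0191), which did not pass without colchicine 2 (0.058). Vehicle 4 stood apart here. The mitotic kinase gene Cdk1 was at 23.7, 45.9, 30.1 and 2.71 CPM in vehicle 1 to 4 and 3.17, 3.45, 11.2 and 13.3 CPM in colchicine 1 to 4, and 14 of the 20 fell without vehicle 4 (19.4% of all tested genes) and 15 without vehicle 1 and 4 (20.3%). By DESeq2, where 20.8% of all genes fell, 7 of the 20 fell. Among 6 other tested CDK inhibitor genes, Cdkn2b fell (-2.21 ± 0.56, adjusted p = 0.0181) and Cdkn1b, which encodes p27, rose (0.60 ± 0.17, adjusted p = 0.026). The number that fell was 2 without vehicle 1, 3 without vehicle 4 and 4 without both, where 2494, 2638 and 2787 of all tested genes fell. Cdkn2b did not pass without colchicine 1 or 2 (up to 0.0558), and Cdkn1b passed only without vehicle 4 or colchicine 3 among the fits that left out 1 library (up to 0.109).

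The rest of the BCL2 family, with which Pmaip1 and Bbc3 act, fell in 8 of 16 tested cases and rose in 2 (50% and 12.5%, against 17.0% and 17.4% of all tested genes, median -0.53). Bax, already counted among the cell death targets, is among those that fell. The largest falls were those of Bcl2a1d (-5.75 ± 0.97) and Bcl2a1b (-5.54 ± 0.70), near-identical survival genes of blood cells among which reads may be split, and of the BH3-only gene Bid (-2.51 ± 0.34, adjusted p = 0.00413). Bcl2a1d was at -3.69 and Bcl2a1b at -4.32 without vehicle 1 and 4. Bcl2l11, which encodes the BH3-only protein Bim, also fell (-2.10 ± 0.28), and Bcl2, the founding survival gene, rose from 9.39 to 17.5 CPM in vehicle to 30.7 to 43.4 CPM in colchicine libraries (1.45 ± 0.24, adjusted p = 0.00548), both named after their values were seen. Without colchicine 1 or 2, 1 of the family rose, where 928 and 898 of all tested genes rose. ATF4 stress genes fell in 6 of 10 tested cases and none rose (60% lowered, against 17.0% of all tested genes, median -1.09), led by the asparagine synthetase gene Asns (-2.36 ± 0.36, adjusted p = 0.00471), Sesn2 and the serine synthesis gene Psat1 (-1.58 ± 0.40, adjusted p = 0.0177). Psat1 did not pass without colchicine 1 or 2 (up to 0.0552). Sesn2 and Ddit4, which fell in this list, were already counted among the metabolic targets. Of 14 genes of the sestrin and mTORC1 list, Sesn2 fell, and Mios (0.65 ± 0.19, adjusted p = 0.031) and Mtor (0.48 ± 0.15, adjusted p = 0.0365) rose, each of them in at most 2 of the 8 fits that left out 1 library. These shares of 7.14% lowered and 14.3% raised are below the 17.0% and 17.4% of all tested genes.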

How the data were processed

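Per the labels' protocols, RNA was taken from aortas with a column kit and sequenced from SMARTer mRNA libraries, and the submitters' processing notes name the build mm10. For the aligner, counting tool, annotation and strand setting, the sources used here give nothing. The authors deposited estimated counts per gene and library (8.7% not whole) and TPM values, per the file headers; 1 TPM column lacked the unit in its name, and it sums to the same total as the others. Counts were rounded, filtered with filterByExpr (13431 of 22063 genes kept) and tested with edgeR 4.0.16 (R 4.3.3): TMM factors of 0.762 to 1.08, quasi-likelihood test, no covariate, Benjamini-Hochberg adjustment over all tested genes, threshold 0.05. Standard errors are the change divided by the square root of F. A floor of 3 counts equals 0.158 to 0.22 CPM, for counting error only. Alternatives used DESeq2 1.42.0, limma 3.58.1 (voom, and trend on log2(TPM + 1), where a fold change understates low genes), other factors and filters, each library left out, and the replicate number as a block. Subtracting library medians from log2 TPM was chosen after seeing the data. The genes, gene lists (20, holding 229 genes) and tests were chosen with earlier results of these data known. Named genes were the 10 studied, up to 3 called members with the largest change in each other list (each list had a call), and the 3 genes most correlated with Trp53, Mdm2 and Cdkn1a (mean log2 CPM of at least 1, prior count 2). Others are Mdm4, Sesn3, Bax, Bcl2, Bcl2l11, Btg1, Cdk1, Ddit4 and the genes with a promoter match, chosen after their values were seen. On simulated data for this comparison (13339 genes), 29 of 100 genes changed by 1 on the log2 scale and 89 of 99 changed by 2 were called. Gene positions come from GENCODE M21 on GRCm38, which mm10 names, and promoter sequences from RefSeq (GRCm38.p6). The values of 1 marker list are not reported here.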

Additional observations from a re-analysis of the deposited data

Results flagged for a closer look

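Cdkn1a in vehicle 1, at 240.2 CPM, lay far above the other vehicle libraries (106 to 115 CPM), and the gene passed the test without that library. On TPM that library (128 TPM) lay within the range of the other vehicle libraries (107 to 132 TPM). In ratios of TPM, which do not depend on library scaling, vehicle 1 still stood apart. Cdkn1a to Ccng1 was 5.81 in vehicle 1 and 3.36 to 3.40 in the other vehicle libraries, and Cdkn1a to Trp53 was 3.2 against 1.57 to 1.93. Pmaip1 in vehicle 3, at 2.05 CPM, lay far below the other vehicle libraries (5.36 to 6.34 CPM), but on TPM it (1.87 TPM) lay close to vehicle 1 (2.01 TPM). Sesn1 in colchicine 3, at 61.1 CPM, lay below the other colchicine libraries (75.0 to 77.9 CPM). Of 20 groups of 4 libraries examined on the log2 scale, these 3 held a library that stood this far apart, and chance marks about 1 group in 20.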

How the results depend on the processing

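Cdkn1a, Pmaip1 and Gdf15 kept their direction and their call in all 20 alternatives at the 0.05 threshold. On log2(TPM + 1) and log2(TPM + 0.1), Trp53 (-0.34 and -0.35) and Phlda3 (-0.55 in both) did not pass, Mdm2 (0.31 and 0.32) and Bbc3 (0.09 and 0.15) turned sign without passing, 3 of the 10 genes fell in each, 863 and 867 of all genes fell, and 7 of the other p53 targets fell in each. These 2 settings put the median of all genes at 0.35 and 0.40. Without vehicle 1 and 4 together, Bbc3 (-1.07) and Ccng1 (0.36) passed and Mdm2 stood at 0.04. In that fit 24 other p53 targets fell, as did 20.3% of all tested genes, and the cause was not tested. Leaving out 1 library gave 1.71 to 2.46 for Trp53inp1, 0.63 to 1.03 for Sesn1 and -0.25 to 0.04 for Mdm2. It gave 898 to 2420 raised and 1309 to 2642 lowered genes, 0 to 2 raised among the 10 genes, and 1 to 7 raised and 8 to 21 lowered among the other targets. At a threshold of 0.01, Trp53inp1 (2.19), Sesn1 (0.93) and Phlda3 (-0.99) did not pass, 603 genes rose and 801 fell, 0 of the 10 genes rose, and 1 other target rose and 4 fell. Vehicle and colchicine libraries of the same replicate number did not deviate together (r of -0.247 to 0.032, 0 of 4 closest to their own number), so the number was not taken as a pairing. With the replicate block 1121 genes rose and 1184 fell, Trp53inp1 (2.26) and Phlda3 (-0.97) did not pass, 1 of the 10 genes rose, and 1 other target rose and 8 fell. Low counts limit Pmaip1, Gdf15 and Bbc3, and the 2 to 11 counts of Pmaip1 in colchicine libraries leave its fold change loosely set.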

Other observations

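The deposited counts and TPM values together carry a length for each gene and library, since a count divided by its TPM is proportional to the length the authors' tool used. Relative to the median gene of each library, this length did not move for Trp53, Ccng1, Phlda3 and Trp53inp1 (0.00 on the log2 scale in all 8 libraries). For Bbc3 it was 0.22, 0.01, 0.13 and 0.22 in vehicle 1 to 4 and -0.36, -0.13, 0.04 and -0.12 in colchicine 1 to 4, a mean difference of -0.29. Of 11555 genes with at least 20 counts in every library, 98.4% had as small a difference or a smaller one. Which Bbc3 transcripts were assigned these reads is not shown by the table, and the 42 to 157 counts per library make the values imprecise. The Bbc3 change thus differs between counts (-0.65) and TPM (0.09) also beyond the shift common to all genes, and it stood at -0.26 on TPM with library medians subtracted.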
